A study of Mus musculus with 287 samples.

Results

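The 10 genes Apoe, Slc1a2, Gja1, Sparcl1, Aqp4, Gfap, Aldh1l1, Aldoc, S100b and Agt, widely used as markers of astrocytes, were followed through single cells of mouse cerebral organoids. They were taken by symbol from an exon count table of 55359 gene IDs, and all 10 were found and counted in at least 1 cell. The cells were those that the labels put in a clone and that had a count in at least 1000 genes, 80 on plate 2, 77 on plate 3 and 90 on plate 1. Another 37 labelled cells had fewer genes, and 3 cells have no clone in the labels.

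The organoids were grown from mouse embryonic stem cells of genotype MADM-11GT/TG;Emx1-CreER+/-, so every group compared carries the same alleles. MADM (mosaic analysis with double markers) recombines a pair of reporter cassettes on homologous chromosomes, here by a tamoxifen-inducible Cre driven from Emx1, a gene of dorsal forebrain progenitors, so that the progeny of a recombined progenitor can be told by green or red fluorescence as a clone. Clones were induced on day 13 with 60 nM 4-hydroxytamoxifen and collected on day 20, and per the labels' protocol the cells drawn into the pipette were fluorescent neurons. The kept cells fell into 46 SN clones of labelled size 2 to 6 (42, 40 and 49 cells on plates 2, 3 and 1) and 22 N clones of labelled size 4 to 19 (38, 37 and 41 cells). The meaning of SN and N is not given in the sources used here, and neither type is a control. No organoid or culture is named, and clones of 1 organoid may not be independent, so the p-values cover no more than the variation from clone to clone. Libraries were made with Smart-seq3, which reads transcripts over their full length, and the labels place the cells on plates 1, 2 and 3. Exon counts per kept cell ran from 10405 to 12162373 in SN cells (median 1365830) and from 6171 to 13040432 in N cells (median 1887120).

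Radial glia, the neural stem cells of the developing cortex, first make neurons and later astrocytes. The path to astrocytes runs through the JAK-STAT, BMP and Notch pathways together with the NFI factors, and Gfap is the textbook target of STAT3. Several genes called astrocytic, among them Slc1a2, Apoe and Aldoc, are known to be present in radial glia and other cells as well, whereas Gfap, Aqp4, Aldh1l1, S100b and Agt are used as marks of a later or more mature state.

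Promoters are shown for 3 of the genes, because Gfap was the most uneven of the genes between plates, Aldoc was common, and Aldh1l1 was counted in a share of cells like that of Gfap. The sequences are those of RefSeq in build GRCm38.p6, from 250 bases before to 50 bases after a transcript start. Capitals mark matches on either strand to the STAT motif TTCNNNGAA. The shorter NFI motif TTGGCA and the full NFI site, named here only, were searched too and had no match in these 3. The windows are chr11:102897151-102897450 (minus strand) for Gfap, chr11:78323948-78324247 (plus strand) for the downstream start of Aldoc and chr6:90550543-90550842 (plus strand) for Aldh1l1.
Gfap: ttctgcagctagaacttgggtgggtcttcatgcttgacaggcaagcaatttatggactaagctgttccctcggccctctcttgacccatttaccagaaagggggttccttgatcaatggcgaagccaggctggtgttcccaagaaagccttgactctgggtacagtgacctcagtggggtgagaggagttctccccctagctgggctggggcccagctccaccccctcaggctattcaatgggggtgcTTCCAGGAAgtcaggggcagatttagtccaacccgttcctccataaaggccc
Aldoc: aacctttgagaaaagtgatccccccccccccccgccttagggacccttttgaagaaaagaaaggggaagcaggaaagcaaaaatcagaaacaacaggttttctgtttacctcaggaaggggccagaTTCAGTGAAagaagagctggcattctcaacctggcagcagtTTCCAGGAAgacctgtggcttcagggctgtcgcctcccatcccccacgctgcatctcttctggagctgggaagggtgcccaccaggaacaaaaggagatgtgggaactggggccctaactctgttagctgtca
Aldh1l1: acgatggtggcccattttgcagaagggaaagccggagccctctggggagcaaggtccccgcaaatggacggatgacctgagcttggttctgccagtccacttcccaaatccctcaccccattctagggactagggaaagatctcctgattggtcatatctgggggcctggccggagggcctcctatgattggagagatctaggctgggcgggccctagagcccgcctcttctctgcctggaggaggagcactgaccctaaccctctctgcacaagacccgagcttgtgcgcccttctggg

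RefSeq promoters matched 8 of the 10 genes. The STAT motif was present in Gfap (1 match), in the downstream Aldoc promoter (2 matches) and in Agt (1 match), and 8.30% of all promoters of this length hold it. The shorter NFI motif was present in a promoter of Apoe, in the upstream promoter of Aldoc and in that of S100b, and 14.1% of all promoters hold it. A match describes these letters only.

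The genes fell into a common and a rare class of detection. The 4 counted in over 50% of cells were Slc1a2, which encodes the glutamate transporter GLT-1, Apoe, a carrier of lipids and cholesterol, Sparcl1, a secreted matrix protein also called hevin, and Aldoc, the brain form of the glycolytic enzyme aldolase. Slc1a2 had an exon count in 72.9% of cells (95% Wilson interval 67.01 to 78.04), and its highest cell had 1714 CPM (exon counts scaled to a library total of 1000000). Apoe was counted in 71.3% of cells (interval 65.3 to 76.5), with a median of 58.9 CPM over all cells and a highest value of 3759 CPM. Sparcl1 was counted in 66.4% and Aldoc in 64.4% of cells, with medians of 26.2 and 27.4 CPM.

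The genes of channels and of the later state were rarer. Gja1, the gap junction protein connexin 43, was counted in 45.7% of cells (interval 39.6 to 51.98). Gfap, the intermediate filament of astrocytes, was counted in 71 cells (28.7%, interval 23.5 to 34.7), Aqp4, the water channel of astrocyte endfeet, in 69 (27.9%) and Aldh1l1, a folate enzyme, in 67 (27.1%). These 3 had similar shares of cells but unlike maxima: the highest cell had 1820 CPM of Gfap, 684 CPM of Aqp4 and 571 CPM of Aldh1l1. S100b, a calcium-binding protein, was counted in 21 cells (8.50%, interval 5.63 to 12.6) and never above 19.3 CPM. Agt, the precursor of angiotensin, was counted in 16 cells (6.48%, interval 4.03 to 10.3), 1 of which had 109.4 CPM. The intervals cover counting error only and take no account of cells sharing a clone.

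Depth moved with detection, and after thinning to a common depth the 4 common genes were still in over 50% of cells. The cells with a Gfap count had a median of 4033520 exon counts, against 1355160 in the cells without. After every cell with enough reads was thinned to 100000 exon counts (leaving out 10 SN and 12 N cells), 70.2% had Slc1a2, 67.6% Apoe, 59.1% Sparcl1, 58.7% Aldoc, 35.6% Gja1, 24.0% Gfap, 24.0% Aldh1l1 and 20.0% Aqp4. S100b and Agt were left in 7 cells each (3.11%).

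For S100b and Agt most reads were intronic. Intron reads made up 87.7% of the reads of S100b and 84.2% of those of Agt, against 2.33% for Gfap and 0.348% for Apoe. Of the 63 cells with intron reads of Agt, 51 had no exon count of it. S100b overlaps Dip2a on the other strand, and Aldh1l1 overlaps 2 predicted genes on its own strand, and since the use of strand in counting is not stated in the sources used here, reads of such genes cannot be told apart with certainty.

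Per kilobase of exon, Apoe was the most abundant. Mean levels over cells were 135.9 CPM per kb for Apoe, 40.9 for Aldoc, 32.6 for Sparcl1, 12.3 for Slc1a2, 7.71 for Gfap, 4.30 for Aldh1l1, 3.38 for Gja1, 2.75 for Aqp4, 0.602 for Agt and 0.310 for S100b. Slc1a2, counted in the most cells, thus came after Apoe, Aldoc and Sparcl1 by this measure. The length used joins all annotated exons of a gene (13133 bases for Slc1a2), so the order depends on the annotation. Before scaling by length, mean levels were 290.6 CPM for Apoe, 161.3 for Slc1a2, 133.5 for Aldoc and 95.8 for Sparcl1. Over clones the spread was wide: Apoe had 173.1 ± 262.99 CPM per kb over SN clones (SD, n = 42), and 139.1 ± 123.3 CPM per kb was its mean over N clones (SD, n = 20). In either clone type, no neighbours in the order differed by more than the larger of their SDs.

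The cells in which the astrocyte genes were counted also had counts of neuron and radial glia genes. Stmn2, which acts on microtubules in young neurons, was present in 96.8% of all cells, and Fabp7, a fatty acid carrier of radial glia, in 95.5%. Among the cells with Gfap, 70 of 71 had Stmn2 and 68 of 71 had Fabp7, and among those with Aqp4 or Aldh1l1 every cell had both. Of all cells with Gfap, Aqp4 or Aldh1l1, 1 thus lacked a count of Stmn2. Markers of other cell types were counted too, unevenly within each list. Of 10 microglial genes the highest was Aif1 in 30 cells, with C1qa in 8, and of 10 endothelial and pericyte genes the highest was Pecam1 in 42.9% of cells (11.1% after thinning), with Cldn5 in 6 cells. Mesenchymal Col3a1 was counted in 91 cells and Col1a1 in 74, the choroid plexus gene Ttr in 68 and the oligodendrocyte lineage gene Olig2 in 79.

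A cell held a median of 4 of the 10 genes (range 0 to 10). The median was 4 in SN cells and 4 in N cells, 15 cells held none (7 SN and 8 N), and 2 cells, both N, held all 10. Gfap, Aqp4 and Aldh1l1 were counted together in 21 cells (9 SN and 12 N) of 16 clones, with 12 cells on plate 2, 7 on plate 3 and 2 of the cells on plate 1. The cells with none of these 3 genes are given beside them, with no test.

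In the 21 cells with all 3, neuron genes were present at levels near those of the cells with none. Stmn2 had a median of 2302 CPM (lowest 314, highest 7111) in the 21 cells and of 2330 CPM in the cells with none. Neurod6, a transcription factor of excitatory cortical neurons, had medians of 175.9 CPM in the 21 cells and 237.6 CPM in those with none. Vim, the filament of radial glia, had 580 CPM against 315 CPM. The glutamate transporter gene Slc1a3, shared by radial glia and astrocytes, had a median of 108.4 CPM in the 21 cells and 1.50 CPM in those with none. The 21 cells were also deeper, with a median of 5673260 exon counts against 985798, and the part of depth in these differences was not tested, although 14 cells held all 3 genes after thinning.

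The genes were weakly and positively correlated over cells. Among the 8 genes counted in at least 25 cells, Pearson's r of log2(CPM + 1) over all kept cells (80, 77 and 90 on plates 2, 3 and 1) lay between 0.143 (Gja1 with Aldh1l1) and 0.419 (Apoe with Gfap) over the 28 pairs, with a median of 0.277. Over all pairs of the 14995 genes counted in at least 25 cells the median was 0.125 and 22.1% of pairs lay above 0.2, against 26 of the 28 pairs of astrocyte genes. These values describe cells that share clones, plates and sequencing depth, and are no test. The 8 genes were counted in 67 to 180 cells each, and the pairs of all genes were not matched to them for detection. Thinning to a common depth left 22 of the 28 pairs above 0.2 and a median of 0.269. The pairs of all genes were not computed after thinning, so these values have no like background.

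Apoe stood closest to the rest, and S100b farthest. Apoe had r of 0.295 or more with each of the other 7 genes, and next to Gfap its closest partners were Sparcl1 (0.404), Aldoc (0.392) and Aqp4 (0.390). Gja1, Aqp4 and Sparcl1 correlated with each other at 0.349 to 0.378. S100b had r of 0.0234 with Apoe and 0.0588 with Gfap, on 21 cells with a count. Agt, with counts in 16 cells, had its highest r with Aqp4 (0.347).

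**Figure D1:**
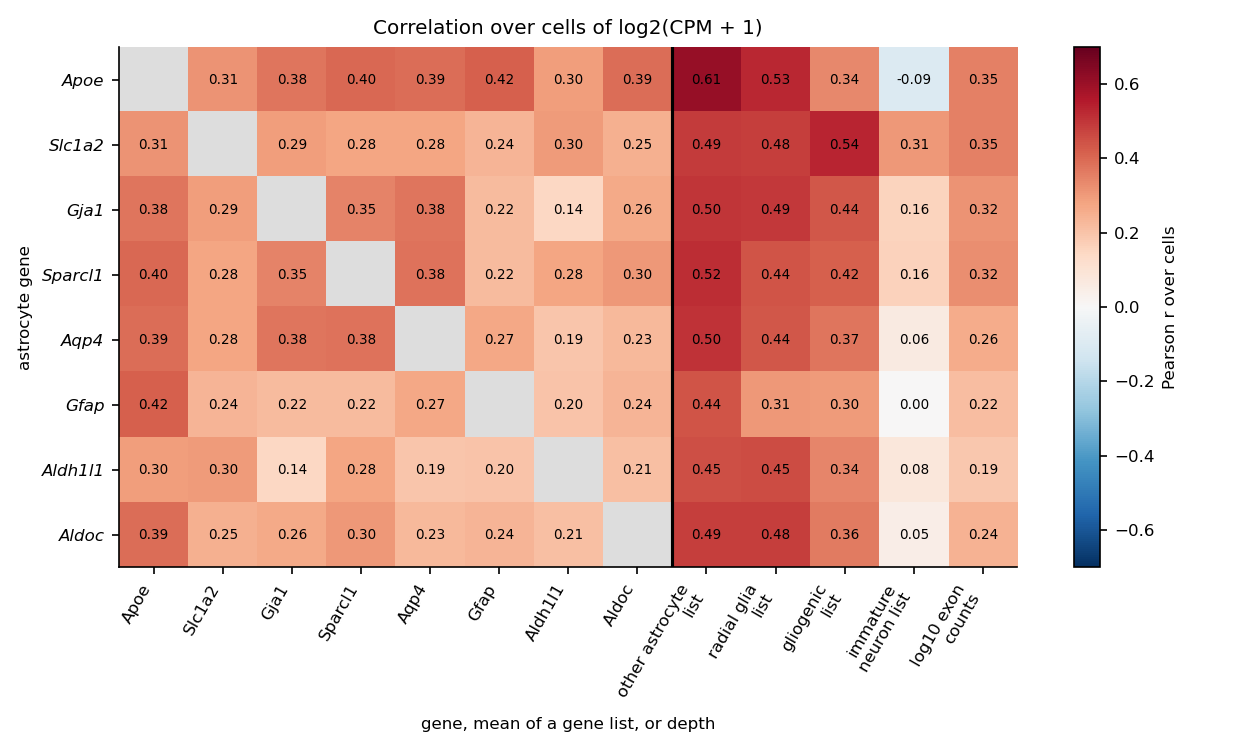
Pearson r over the kept cells of log2(CPM + 1) between the 8 astrocyte genes counted in at least 25 cells (left of the line) and between each gene and the mean of a gene list or the sequencing depth of the cell (right of the line). Every pair of genes is positive, from 0.143 to 0.419, and Apoe has the highest value with the other astrocyte list, 0.607.

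Whether a gene went with radial glia or with astrocytes was asked with 2 further lists, the means of 37 other astrocyte genes and of 19 radial glia genes. Gfap leaned most to the astrocyte list, with r of 0.440 against 0.305 with the radial glia list, followed by Apoe (0.607 against 0.526), Sparcl1 (0.516 against 0.440) and Aqp4 (0.505 against 0.437). Aldh1l1 (0.449 against 0.455), Aldoc (0.486 against 0.483), Slc1a2 (0.488 against 0.482) and Gja1 (0.500 against 0.493) had nearly the same r with both lists. The same 4 genes leaned to the astrocyte list after thinning, Gfap with 0.451 against 0.279. These gaps were not tested and have no error given. By Spearman's rank correlation Gfap had 0.432 against 0.364 and Aqp4 0.511 against 0.485, while Gja1 (0.521 against 0.536) and Aldoc (0.467 against 0.478) were higher with the radial glia list. The astrocyte list also holds genes that radial glia share, such as Slc1a3.

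Slc1a2 had the highest correlation of the 8 with neuron genes, given here with no test. Its r with the mean of 14 immature neuron genes was 0.305, against 0.160 or less for the other 7, and -0.095 for Apoe. Its r with the mean of 26 gliogenic signalling genes and regulators was 0.535, which is above its r with either glial list. Its level also followed depth (r of 0.354 with log10 exon counts, and 0.350 for Apoe). Its r with the neuron list was 0.253 after thinning and 0.207 in cells with at least 2000 genes. In the thinned cells its level still followed the number of detected genes (r of 0.421, and 0.279 for Apoe). The part of that number in its r with the lists was not tested.

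The genes whose levels were most like each member's were partly known astrocyte genes. Among the 3 closest to Apoe were Ednrb, an endothelin receptor, with r of 0.469 over all kept cells, and Cst3, a secreted protease inhibitor (0.459). Pla2g7 was among the 3 closest to Gja1 (0.419), Sparcl1 (0.424) and Aqp4 (0.431), and Pbxip1 was among those of Sparcl1 (0.412) and Aqp4 (0.469). Among those of Gfap were Ndrg2 (0.356) and Nbl1 (0.347), and among those of Aldoc were Pea15a (0.394) and Ndrg2 (0.392). The 3 closest to Slc1a2 (Npepps, Msmo1 and Specc1l, 0.461 to 0.451) and to Aldh1l1 (Llgl1, Dlc1 and Maf, 0.379 to 0.362) were in none of the lists.

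Of the 10 genes, Apoe and Gfap varied most between clones. Of the variance of log2(CPM + 1) over cells, 58.1% lay between the 62 clones with at least 2 kept cells for Apoe and 49.4% for Gfap, against a median of 28.0% over 14793 genes and 25.4% that the number of clones alone gives. The share was 40.5% for Aqp4, 37.6% for Aldh1l1, 35.1% for Sparcl1, 33.9% for Gja1, 33.2% for Agt and 32.3% for Aldoc. Slc1a2 (26.8%) and S100b (23.7%) lay below the median of all genes. With the mean of each plate subtracted first, a step added after the plates had been compared, Apoe kept 45.6%, Gfap 41.3% and Aldh1l1 37.1%, and Aldoc dropped to 24.1%, below the median of all genes of 26.9%.

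**Figure D2:**
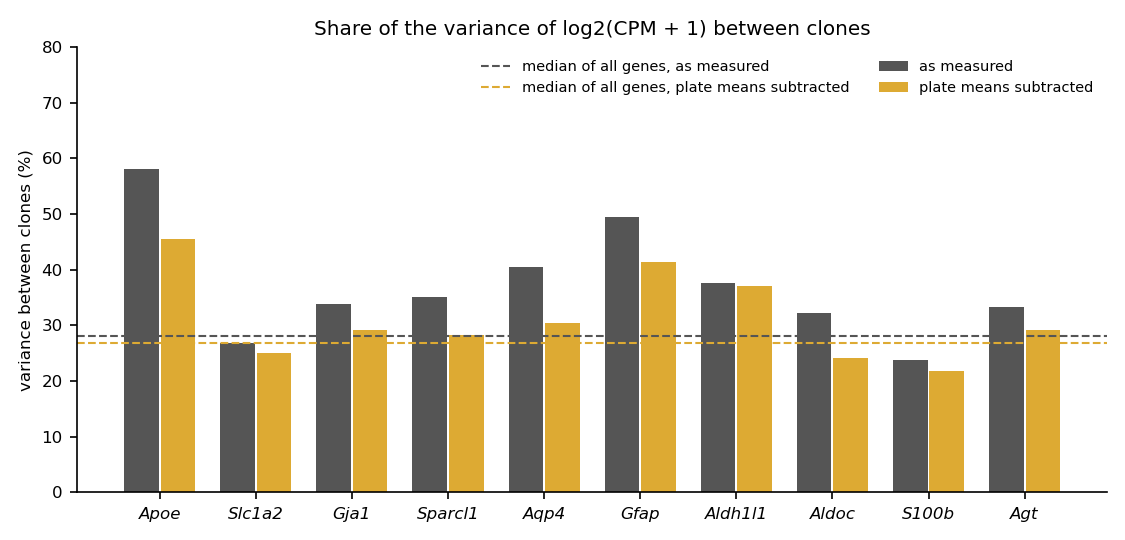
Share of the variance of log2(CPM + 1) over cells that lies between clones of at least 2 kept cells, in percent, as measured (grey) and with plate means subtracted (yellow), with dashed lines at the medians of all genes, 28.0% and 26.9%. Apoe (58.1% and 45.6%) and Gfap (49.4% and 41.3%) have the highest bars in both.

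Gfap was concentrated in few clones and cells. It was counted in cells of 37 of the 68 clones, and in 2 or more cells of 18. A single SN clone, clone 40 on plate 2, held 30.7% of the summed Gfap CPM of all cells, against a median of 15.8% for the highest clone of a gene. A single cell of that clone held 22.7% of the summed CPM. Among cells with a count in at least 2000 genes the highest clone was N clone 39 on plate 2, with Gfap in 9 of 9 cells and 36.1% of the summed CPM, and the highest cell held 10.3%. The 4 kept cells of SN clone 40 had 0, 305, 1820 and 339 CPM of Gfap and 553, 2454, 1546 and 795 CPM of Apoe. The cell with 1820 CPM, the highest Gfap level of all, had no count of Stmn2, Aldoc, Aqp4 or Aldh1l1, and had 1363 CPM of Fabp7. This cell had 463093 exon counts, against a median of 1517430 over kept cells. It was not among the cells with a count in at least 2000 genes, so low depth may have part in the missing counts, which was not tested.

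By CPM summed over the cells of a clone, other genes peaked in other clones, 4 of them in N clones. The highest clone was N clone 39 for Slc1a2 and N clone 45 for Gja1, Sparcl1 and S100b. Such a sum grows with the number of cells, and these clones had 9 and 10 kept cells. By the CPM of a clone's pooled counts, the highest clones of Slc1a2, Gja1, Sparcl1 and S100b were the SN clones 65, 20, 33 and 67. For Apoe the highest was clone 23, an SN clone with 2458, 329 and 3759 CPM in its 3 cells, which held 9.12% of the summed CPM. For Aldh1l1 it was clone 65, an SN clone with 23.0, 571 and 114.6 CPM in its 3 cells (14.8% of the summed CPM), and for Aqp4 it was clone 37, also SN (17.9%). The common genes were spread over most clones: Slc1a2 was counted in 64 of 68, Apoe and Sparcl1 in 62 and Aldoc in 61.

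SN and N clones were compared as sums over the cells of a clone, which is the lineage unit, in the 42 SN and 20 N clones with at least 2 kept cells. None of the 8 genes tested passed. S100b and Agt fell below the filter on low counts. No gene of 11914 passed (0% called, edgeR's quasi-likelihood test with plate as a term, Benjamini-Hochberg adjusted p under 0.05). At an unadjusted p under 0.05, 2.06% of all genes passed and 1 of the 8, Gfap, and the Wald test of DESeq2 called 2 of all genes and none of the 8. In data simulated with known changes over 11914 genes, this test recovered 22% of changes of log2 2 and 77% of those of log2 4. Of its calls there, 9.17% were false. The changed genes were drawn at random from all genes tested, so these shares are not those of the members.

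Gfap had the largest difference of the 8, and its groups overlapped. Over clones it ran from 0 through a median of 0 to 503 CPM in SN clones and from 0 through a median of 19.9 to 252.3 CPM in N clones. It was at 0 in 23 of 42 SN clones and in 3 of 20 N clones, but SN clones also had fewer cells summed (a median of 3 per clone, against 5 in N clones). Per cell, Gfap was counted in 23.7% of SN cells (interval 17.2 to 31.6) and 34.5% of N cells (26.5 to 43.5), and after thinning in 15.7% and 33.7%. These intervals take no account of cells sharing a clone, and N clone 39 alone held 9 of the 40 N cells with Gfap. The log2 difference, SN over N, was -1.84 ± 0.88 (SE; unadjusted p = 0.0404, adjusted p = 1.00), and within plates 1, 2 and 3 it was -2.96 ± 1.72, -0.33 ± 1.23 and -1.997 ± 1.50. Without the plate term it was -0.79 ± 0.94, and with each cell weighted equally -0.74 ± 1.01. Plate 3 here includes N clone 45, most of whose pooled counts came from cells on plate 2.

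The 4 common genes had log2 differences within 1 SE of 0. Apoe ranged from 0 to 1985 CPM in SN clones (median 70.2) and from 0 to 824 CPM in N clones (median 260), with a log2 difference of 0.26 ± 0.61, so that the fitted difference and that of the medians have opposite signs. Slc1a2 ranged from 0 to 857 CPM in SN clones (median 124.1) and from 42.8 to 482 CPM in N clones (median 164.2), with a log2 difference of -0.10 ± 0.39 that was 0.029 with RLE scaling. Both genes thus had their highest clones among the SN clones. Sparcl1 ranged from 0 to 326 CPM in SN clones (median 63.5) and from 4.44 to 223.7 CPM in N clones (median 89.5), with a difference of -0.44 ± 0.53. Aldoc ranged from 0 to 954 CPM in SN clones (median 49.7) and from 0 to 341 CPM in N clones (median 104.1), with a difference of 0.11 ± 0.55. Adjusted p was 1.00 for each of them by edgeR's test. Every one of these ranges overlapped, as the plot by clone shows.

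The rarer genes had wider errors. Gja1 had medians of 21.9 CPM in SN clones and 23.7 CPM in N clones (log2 -0.51 ± 0.82), Aqp4 of 0.473 and 2.50 CPM (-0.64 ± 1.37) and Aldh1l1 of 0.675 and 7.34 CPM (0.26 ± 0.94). Aqp4 was at 0 in 18 SN clones and 6 N clones, and Aldh1l1 in 18 and 4. The difference of Aqp4 was 4.27 ± 2.58 within plate 1, 0.92 ± 1.28 within plate 2 and -3.37 ± 1.45 within plate 3. A test of whether the SN to N difference differed between plates, added after these values were seen, called 0 of the 8 genes (adjusted p = 1.00 for Aqp4, edgeR) and 0% of all genes, with 3 of the 8 (Gja1, Sparcl1 and Aqp4) and 2.25% of all genes at an unadjusted p under 0.05. DESeq2 was not run for it.

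S100b was counted in 9 SN cells (6.87%) and 12 N cells (10.3%), and Agt in 7 SN cells (5.34%) and 9 N cells (7.76%). Both had a median of 0 CPM over clones of either type. Their highest clones were SN, with 12.8 CPM of S100b and 44.5 CPM of Agt.

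**Figure D3:**
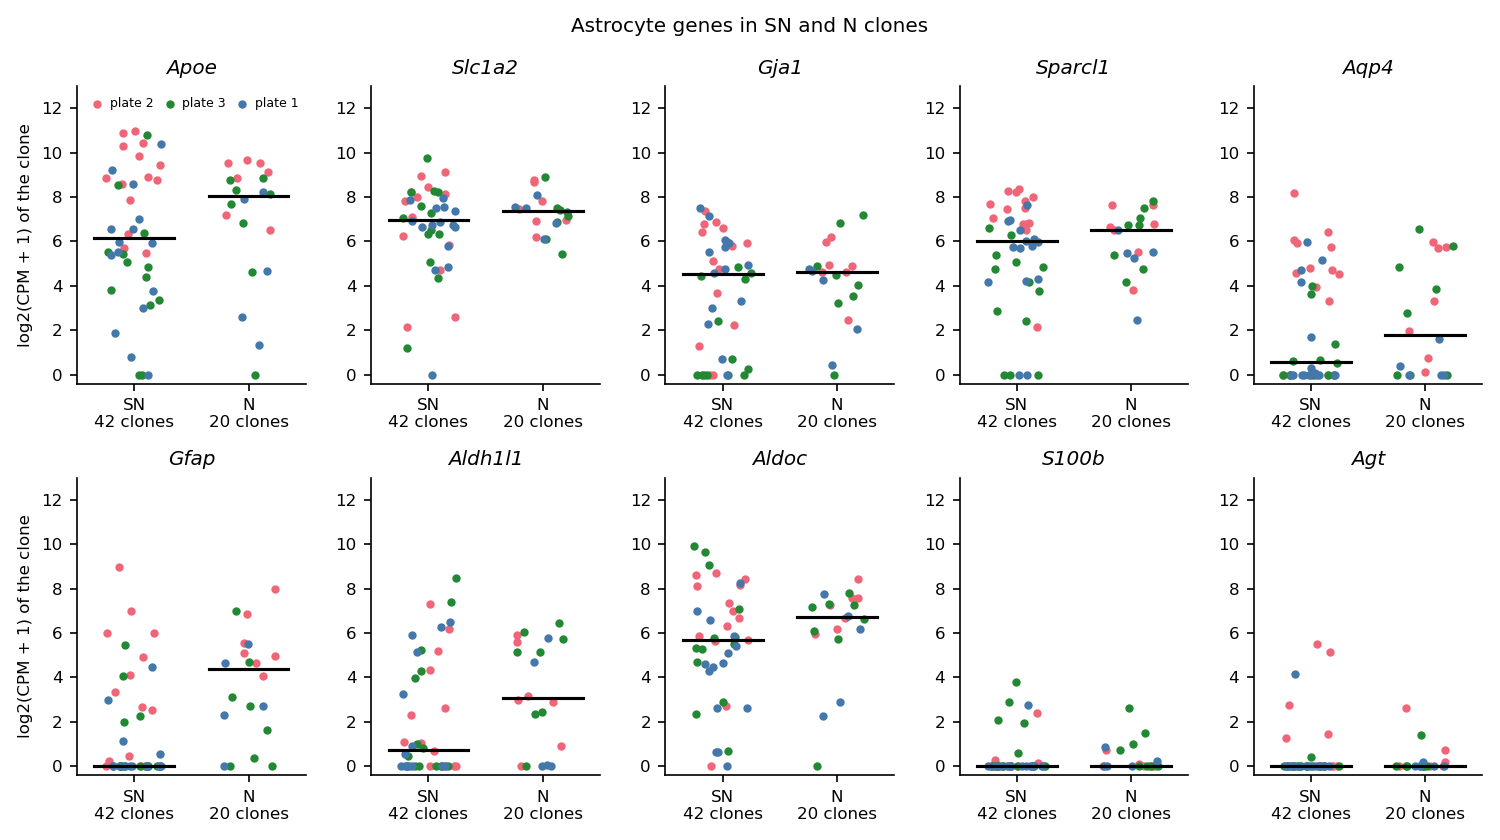
Level of each astrocyte gene in each clone, as log2(CPM + 1) of the summed exon counts, in 42 SN clones (left) and 20 N clones (right). Points are clones coloured by plate and black lines are medians. The 2 clone types overlap in every gene, and for Apoe most clones of plate 2 (pink) sit above the medians, from 43.9 CPM up.

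Of the 8 genes tested, 3 had a log2 difference above 0, against 40.2% of all genes, and their median was -0.27, against -0.11 over all genes. Scaling by RLE in place of TMM moved the median of all genes to 0.00049. None of the 24 other astrocyte genes tested passed, with 18 above 0 and a median of 0.30, and none of the 18 radial glia genes, with 16 above 0 and a median of 0.38. Fabp7 had the smallest p of the radial glia list (log2 0.96 ± 0.36, adjusted p = 1.00 by edgeR), with medians of 1741 CPM in SN clones and 1429 CPM in N clones.

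Among 26 gliogenic signalling genes and regulators, 12 were above 0 and none passed. Zbtb20, which encodes a zinc finger factor with a role in astrocyte formation, had the smallest p (log2 -0.93 ± 0.35, adjusted p = 1.00 by edgeR), with medians of 202.1 CPM in SN clones and 350 CPM in N clones. Of 14 immature neuron genes 2 were above 0 (median -0.15), and of 8 mesenchyme genes 1 was (median -1.87), with none passing in either list. The summed mesenchyme level of a clone ranged from 0 to 466 CPM in SN clones (median 40.3) and from 0.240 to 1825 CPM in N clones (median 60.4), and its part in the SN to N differences was not tested.

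Green and red cells of the same clone were compared in the 45 clones that held both (31 SN and 14 N), with the clone as block. None of the 5 genes that passed the filter was called, and 0% of 7437 genes were called, with none of the 5 and 1.64% of all genes at an unadjusted p under 0.05 (edgeR's quasi-likelihood test). Apoe had medians of 128.2 CPM in green and 97.5 CPM in red sums, and was higher in green in 22 clones and in red in 20 (log2 green over red -0.07 ± 0.65). The difference was 0.12 ± 0.63 for Slc1a2 (-0.072 with RLE scaling), 0.70 ± 0.85 for Sparcl1, 0.88 ± 0.90 for Aldoc and -1.32 ± 1.09 for Gja1, with adjusted p of 1.00 for each by edgeR. Gja1 was higher in green in 14 clones and in red in 24, with medians of 3.24 CPM in green and 26.0 CPM in red.

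The test of whether the colour difference differed between SN and N clones called 0% of genes and none of the 5. Slc1a2 had the smallest p of them (log2 difference of differences 2.46 ± 1.23, SN minus N, adjusted p = 0.999 by edgeR, unadjusted p = 0.0481), beside a median of 0.99 over all genes, and 3.58% of genes had an unadjusted p under 0.05. Gfap, Aqp4 and Aldh1l1 were below the filter. Gfap was counted in 25.5% of green cells and 34.0% of red cells, Aqp4 in 23.5% and 35.1%, and Aldh1l1 in 28.8% and 24.5%.

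More genes were called between plates than between clone types, and plate 2 had the highest levels of most of the 10. Gfap was counted in 53.8% of plate 2 cells (interval 42.9 to 64.3), 23.4% of plate 3 cells (15.3 to 34.0) and 11.1% of plate 1 cells (6.15 to 19.3). Aqp4 was counted in 50.0%, 22.1% and 13.3% of the cells on plates 2, 3 and 1, and Apoe in 92.5%, 64.9% and 57.8%. Thinning kept the order for Gfap, with 45.6% on plate 2, 17.7% on plate 3 and 8.33% on plate 1. A plate 2 cell held a median of 6 of the 10 genes, and a cell of plate 3 or of plate 1 a median of 3.

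**Figure D4:**
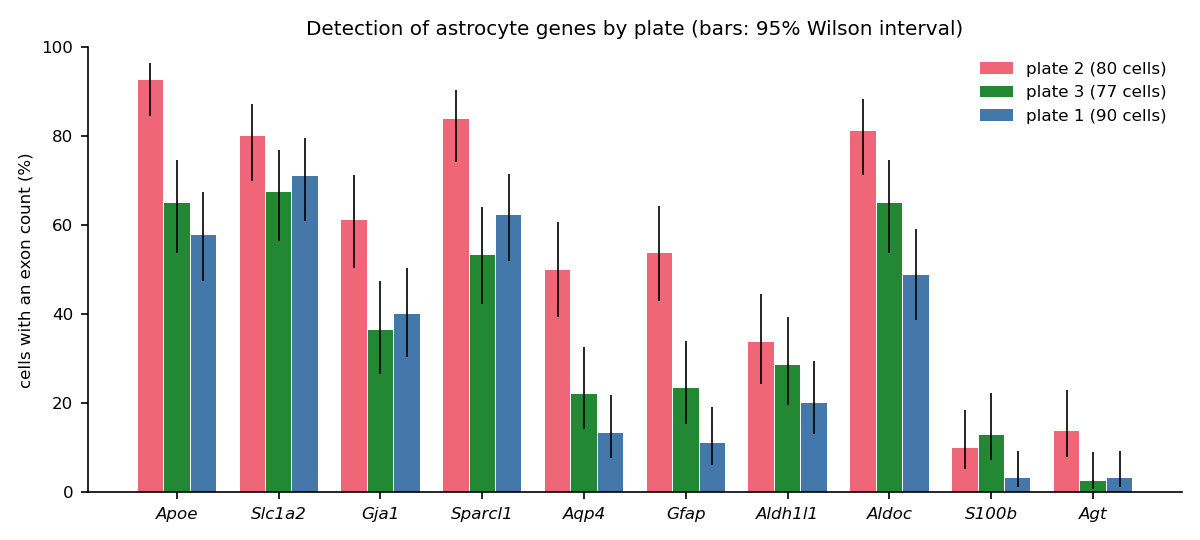
Share of kept cells with an exon count of each astrocyte gene on plate 2 (80 cells), plate 3 (77 cells) and plate 1 (90 cells), in percent, with 95% Wilson intervals as bars, which cover counting error only. Plate 2 has the highest share for every gene but S100b, and the intervals of plate 2 for Gfap and Aqp4 lie above those of the other plates. The intervals take no account of cells sharing a clone, and no pair of plates passed edgeR's test over clones for either gene.

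This comparison was added after the plates had been seen to differ, and the labels say of a plate no more than its number. In the fit of the 62 clones, a test for any difference among the plates called 664 of 11914 genes (5.57%) and 1 of the 8 astrocyte genes, Gfap (adjusted p = 0.0165, edgeR). At an unadjusted p under 0.05 it passed 5 of the 8 and 16.8% of all genes. Without clone 40 the adjusted p of Gfap was 0.107 in the same edgeR test, so its call rests on that clone, and the log2 differences were then 2.18 ± 1.06 for plate 2 over 3 and 3.21 ± 1.12 for plate 2 over 1. Over the 21 clones of plate 2 Gfap ran from 0 through a median of 23.9 to 503 CPM, over the 21 of plate 3 from 0 through 0 to 124.3 CPM, and over the 20 of plate 1 from 0 through 0 to 44.8 CPM. The log2 difference was 3.08 ± 1.11 for plate 2 over 3, 4.15 ± 1.18 for plate 2 over 1 and 1.07 ± 1.03 for plate 3 over 1.

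Taken pair by pair, none of the 8 genes passed edgeR's test, against 5.75% of all genes called for plate 2 over 3, 0.00839% for plate 2 over 1 and 4.62% for plate 3 over 1. At an unadjusted p under 0.05 there were 3, 5 and 1 of the 8 for these pairs, against 17.7%, 5.77% and 16.1% of all genes. The Wald test of DESeq2 called Gfap for plate 2 over 3 (adjusted p = 0.0485) and over 1 (adjusted p = 0.0126), and Aldoc for plate 3 over 1 (adjusted p = 0.0155). These are 1 of the 8 in each pair, beside 11.4%, 0.621% and 10% of all genes called by DESeq2. The median log2 difference of the 8 genes was 1.55 for plate 2 over 3, with 6 of 8 above 0 (all but Aldoc and Aldh1l1) against 52.3% of all genes, and 1.45 for plate 2 over 1, with 8 of 8 above 0 against 51.1% of all genes. For plate 3 over 1 it was 0.43, with 6 of 8 above 0 against 47.8% of all genes. Scaling by RLE in place of TMM put the median of all genes at -0.21, 0.12 and 0.31 for plate 2 over 3, plate 2 over 1 and plate 3 over 1, and turned the sign of Slc1a2 for plate 2 over 3 and of Sparcl1 for plate 3 over 1.

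Apoe and Sparcl1 came next after Gfap. Apoe had clone medians of 478 CPM on plate 2 (lowest 43.9, highest 1985), 42.1 CPM on plate 3 (0 to 1769) and 52.3 CPM on plate 1 (0 to 1319), with an adjusted p of 0.0865 for any plate difference by edgeR. Sparcl1 had medians of 131.2, 28.1 and 52.4 CPM on plates 2, 3 and 1 (adjusted p = 0.0762, edgeR). Apoe was highest on plate 2 in both clone types, with medians of 467, 27.7 and 59.2 CPM in SN clones and 554, 241.9 and 24.5 CPM in N clones on plates 2, 3 and 1. Slc1a2 had medians of 176.6, 142.5 and 115.3 CPM on plates 2, 3 and 1 (adjusted p = 0.651, edgeR). For Aldh1l1 the errors were too wide to show little or much difference (adjusted p = 0.751, edgeR), with log2 -1.05 ± 1.06 for plate 2 over 3, 0.23 ± 1.07 for plate 2 over 1 and 1.29 ± 1.09 for plate 3 over 1.

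Beside the 5.57% of all genes, the any-plate test called 3 of 24 other astrocyte genes (Cst3, Mt1 and Ndrg2), 3 of 18 radial glia genes (Hopx, Dbi and Notch1), 4 of 26 gliogenic genes (Id1, Id2, Id3 and Nfib), 3 of 14 immature neuron genes (Stmn2, Bcl11b and Map2), 1 of 8 mesenchyme genes (Col3a1) and 1 of 2 choroid plexus genes (Ttr), genes that were named after their values were seen. Of the 18 radial glia genes, all were above 0 for plate 2 over 1 (median 0.59), and of the 14 neuron genes none was (median -0.52). Id1 and Id3, targets of BMP signalling, were higher on plate 2 than on plate 3 by log2 3.68 ± 1.03 and 3.07 ± 0.78 (adjusted p = 0.0179 and 0.00718, edgeR).

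Mesenchyme and choroid plexus genes were low on plate 3, and depth was highest on plate 2. For plate 2 over 3, all 8 mesenchyme genes were above 0 (median log2 3.83) and 2 passed, and the choroid plexus gene Ttr was higher by log2 6.61 ± 1.72 (adjusted p = 0.00949, edgeR). For plate 2 over 1, 6 of the 8 mesenchyme genes were above 0 (median 0.41) and none passed, and for plate 3 over 1 none of the 8 was above 0 (median -3.23) and 1 passed. Summed mesenchyme levels per clone had medians of 97.9 CPM on plate 2 (0.160 to 1825), 11.0 CPM on plate 3 (0 to 260) and 90.8 CPM on plate 1 (0.240 to 466). Median exon counts per cell were 2125500, 1316890 and 1522420 on plates 2, 3 and 1. The part of these in the plate differences of the astrocyte genes was not tested, and plate and culture cannot be told apart where no culture is named.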

How the data were processed

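Cells were profiled by Smart-seq3, 1 cell per library. As deposited, the values are unscaled exon counts and intron counts for each gene and cell. STAR 2.7.9a, R 4.4.0 and build GRCm39 are named in the submitters' processing notes. The counter and its use of strand or molecular identifiers are not given in the sources used here. Whether the counts are of reads or of molecules is thus not known, and they are called reads here for short. Annotation used here (exon length, overlaps, promoters) is GENCODE M21 and RefSeq of another build, GRCm38.p6.

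Everything else was computed here. Cells with a count in at least 1000 genes were kept; no doublet caller was run, and the highest correlation between any 2 kept cells (0.888) gave no sign of a library deposited as 2. Exon counts were summed per clone (at least 2 kept cells) or per clone and colour, and tested over all genes with edgeR 4.0.16 (quasi-likelihood F test, TMM, filterByExpr, Benjamini-Hochberg, threshold 0.05), with plate or clone as a term. Clone 45, on 2 plates, was put on the plate with most of its cells, plate 3, although most of its pooled counts came from its deeper cells on plate 2. SE was computed as the absolute log2 difference divided by the root of F. Clone type and plate carry no pairing; colour is paired by clone, from the labels, by the MADM design. DESeq2 1.42.0 was an alternative.

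On simulated data over 7437 genes, the green to red test recovered 14% of changes of log2 2 and 72% of log2 4, and 3.37% of its calls were false. Thinning drew 100000 counts per cell without replacement. The members, lists and tests were chosen with earlier results of these data known. Named besides the members were the 3 genes most correlated with each member and the list genes of smallest p, some of which are not reported here.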

Additional observations from a re-analysis of the deposited data

Results flagged for a closer look

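Counts of the astrocyte genes were also present in libraries that entered no comparison, above the limit that a count of 0 allows, which is why they are listed here. Of the 3 cells that the labels put in no clone, unassigned cell 1 (1689914 exon counts) had 782 CPM of Apoe, 194.7 of Sparcl1, 160.96 of Slc1a2, 118.9 of Aldoc, 18.9 of Gja1 and 13.6 CPM of Gfap. Unassigned cell 2 (5976683 exon counts) had 654 CPM of Apoe, 419 of Aldoc, 417 of Slc1a2, 166.8 of Sparcl1 and 31.8 CPM of Gfap, and no count of Aqp4, Aldh1l1 or Gja1. The third had 2257 exon counts in all and none of the 10 genes. All 3 lay on plate 2.

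The 37 labelled cells left out for having a count in fewer than 1000 genes (4 to 168490 exon counts, median 7130) had, summed, 481 CPM of Apoe, 212.5 CPM of Slc1a2, 44.0 CPM of Aldoc, 5.51 CPM of Aqp4 and 4.405 CPM of Gja1. Apoe was counted in 2 of these cells, Slc1a2 in 6 and Aldoc in 4, and Gfap, Aldh1l1, Sparcl1, S100b and Agt in none.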

How the results depend on the processing

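No member was called for SN to N or green to red in any setting tried, and the classes of detection, the pairs above 0.2 and the genes above the median share between clones stayed within 1.5 times of their counts. Limits are the clone numbers, counts per clone near 0 for Aqp4, Gfap, Aldh1l1, S100b and Agt, and filters: without one, 6861 of 39336 genes were called for SN to N, 1 for green to red and 4 members (Apoe, Sparcl1, Gfap and Agt) for any plate, and the share of genes called was 39.5% for any plate and 16.3%, 25.7% and 23.8% for plate 2 over 1, 2 over 3 and 3 over 1. The cause was not tested. Intron counts gave Gfap no value for SN to N.

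SN to N called 2 genes with cells of at least 2000 genes and 2 by DESeq2. Green to red called 1 gene with RLE scaling. Plate results are given as shares of the genes tested. Fits of 1 clone type tested fewer genes (4548 in SN clones, 7144 in N clones, against 11914) and made fewer calls by over 1.5 times for any plate, plate 2 over 3 and plate 3 over 1. In SN clones alone any plate called 5.52%, plate 2 over 3 6.31% and plate 3 over 1 3.91% of genes. Any plate called 2.44% in N clones alone. In SN clones alone the 1 member called was Sparcl1 (adjusted p = 0.0317, edgeR). The any-plate test called 2 members with each cell weighted equally (Gfap and Apoe, beside 4.79% of all genes), 0 in N clones alone and 0 without the highest clone, clone 40. Plate 2 over 1 called 0.0168% of genes with RLE, 0.0507% with cells of at least 2000 genes, 0.0171% with equal weights, 0.044% in SN clones, 0% in N clones and 0.621% by DESeq2. Plate 2 over 3 called 3.61% in N clones and 11.4% by DESeq2, and plate 3 over 1 called 0.602% and 10%.

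For SN to N, 19 of 93 alternative values of single members changed sign, none of them called. Apoe was -0.38 with equal weights and -0.30 on plate 3. Slc1a2 was 0.029 with RLE, 0.029 by DESeq2, 0.16 in clones of size 4 to 6 and 0.20 on plate 3. Gja1 was 0.17 without the plate term, 1.72 on plate 1 and 0.65 on plate 2. Sparcl1 was 0.018 without the plate term, 0.0098 from intron counts, 0.55 on plate 1 and 0.77 on plate 2. Aqp4 was 0.097 without the plate term, 4.27 on plate 1 and 0.92 on plate 2. Aldh1l1 was -0.19 and Aldoc -0.054 without their highest clone, and Aldoc -0.63 on plate 1.

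No paired analysis was possible for SN to N or plates because each clone has 1 type and its cells' numbers pair nothing across types. Green to red has the clone as block. Without the replicate block it called 0 genes, and Apoe was 0.47, Slc1a2 -0.025 and Aldoc -0.38. With it, Slc1a2 was -0.072 with RLE and -1.32 in N clones, Sparcl1 -0.42 in N clones and Apoe 0.17 in SN clones.

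For plate pairs, 13 values of single members changed sign, and 10 passed the threshold in an alternative where the reported fit did not (5 of Gfap, 3 of Sparcl1, 1 of Apoe and 1 of Aldoc). For plate 2 over 3, Slc1a2 was -0.0086 with RLE and -0.0086 by DESeq2, Gja1 -0.36 in N clones, and Aldoc 0.025 with no filter, 0.59 with equal weights, 0.48 in N clones and 0.32 without its highest clone. For plate 3 over 1, Gja1 was 1.67 and Sparcl1 1.32 in N clones, Sparcl1 0.19 with RLE and 0.19 by DESeq2, and Aqp4 -0.18 without its highest clone. For plate 2 over 1, Aldh1l1 was -0.67 with equal weights.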
